A study of Mus musculus with 6 samples.

Results

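The germ layer and neural lineage markers are 38 genes that mark the tissues formed when pluripotent cells of the embryo differentiate. They comprise 12 endoderm genes, 12 genes of the primitive streak and mesoderm, 13 genes of neural progenitors and neurons, and the stroma gene *Dcn*. They were listed by name as known lineage markers, with earlier results of these arrays known, and all 38 had a probe set with a single gene symbol among the 17097 genes measured. Each gene was read from 1 probe set, the one with the highest mean over the arrays.

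Gene expression was measured on 6 arrays, with 1 array per condition and therefore no replicate, error or p-value for any difference. All cultures came from the mouse ESC line E14tg2a carrying a doxycycline-inducible FLAG-*Prdm14* cassette, from colonies picked after selection, so that each line may stand for 1 clone. The 4 arrays without knockdown were ESCs, whose label names no shRNA, and 3 EpiLC cultures with a scramble shRNA: EpiLCs at day 2 (d2), EpiLCs at day 4 (d4), and EpiLCs + PRDM14. The other 2 arrays, labelled *Tet1*/*Tet2* KD, hold a day-2 culture and a culture with PRDM14, in which shRNAs target the TET enzymes that oxidize methylated cytosine. For the ESCs, the labels describe feeder-free culture in serum and LIF, whereas the study's methods for EpiLC induction give N2B27 medium with LIF and inhibitors of GSK3 and MEK, and which of these the ESC array had is not stated. EpiLCs, a culture model of the early postimplantation epiblast, were induced on fibronectin with activin A and bFGF until day 2 and then replated in GK15 medium, a serum-replacement medium, with doxycycline (EpiLCs + PRDM14) or without it (EpiLCs at day 4). The label of EpiLCs + PRDM14 names no day. By the design of the culture EpiLCs (d4) is its same-day reference, and it is called so here on that basis, and no KD array of day 4 was analysed here.

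The names of the arrays are their labels. The only *Prdm14* probe set read 4.95 in the scramble array labelled + PRDM14, against 5.04 at day 2, 5.18 at day 4 and 6.96 in ESCs, and 4.70 in the KD array labelled + PRDM14, against 4.84 in the KD array of day 2. It was thus not higher in either array labelled + PRDM14, and whether its probes match the cassette transcript was not tested. The 5 EpiLC marker genes, such as *Pou3f1*, had a mean log2 signal of 3.49 above the array median in both scramble EpiLC arrays and of 1.43 in EpiLCs + PRDM14. The 6 ESC marker genes, such as *Nanog*, stood at 3.49 in both of these EpiLC arrays, at 4.76 in EpiLCs + PRDM14 and at 5.12 in ESCs. The KD columns have medians of 5.07, whereas the others lie at 5.28 to 5.29, and differences between KD and other arrays were therefore taken after a shift of every array to a common median. Relative to the array median, the brighter *Tet2* probe set stood at 3.43 in the KD array of day 2, against 3.25 in EpiLCs (d2), and at 2.69 in the KD array with PRDM14, against 3.23 in EpiLCs + PRDM14. *Tet2* was thus not lower in the array labelled KD at day 2, and *Tet1* was not analysed here. The study's methods state that the efficiency of the knockdown was examined by qRT-PCR and western blotting, which were not part of these arrays.

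During gastrulation, epiblast cells pass through the primitive streak to form mesoderm and definitive endoderm, whereas the anterior epiblast gives rise to neural ectoderm. The primitive endoderm separates earlier and forms the visceral and parietal endoderm. Transcription factors such as GATA6, EOMES and PAX6 specify these lineages, and structural proteins such as tubulins and neurofilaments appear as the cells mature. PRDM14 is a PR-domain protein of ESCs and primordial germ cells that is known for maintaining the naive pluripotent state and for repressing differentiation genes.

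A minority of these markers, most of them neural or endoderm genes, differed between the cultures past the threshold used here. A call, higher or lower, required a difference of 1.5-fold or more between 2 arrays (0.585 on the log2 scale), and 10 of the 38 genes (26.3%) passed this threshold in at least 1 of 8 comparisons, beside 18.4% of all genes. They were *Tubb3*, *Stmn2*, *Nefl*, *Irx3* and *Six4* of the neural group, *Apoe*, *Sparc* and *Dab2* of the endoderm group, *Tbx6* of the mesoderm group and *Dcn*. The 8 comparisons did not include ESCs against EpiLCs + PRDM14, so the count does not cover that pair. Over ESCs and the 3 scramble arrays, the log2 signals of the other 28 genes spanned between 0.01 and 0.73. The median span of all 38 was 0.17, beside 0.20 for all genes. The mean signal of 16 of the 38 genes lay below the median of all probe sets, 5.21, and 15 of these 16 were among the 28, *Tbx6* being the exception. Per array, 16 to 18 of the 38 genes lay below the array median, as did 5878 to 5914 of all 17097 genes. Probe sets differ in how well they hybridize, so a dim signal bounds neither the presence nor the absence of a transcript.

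**Figure D1:**
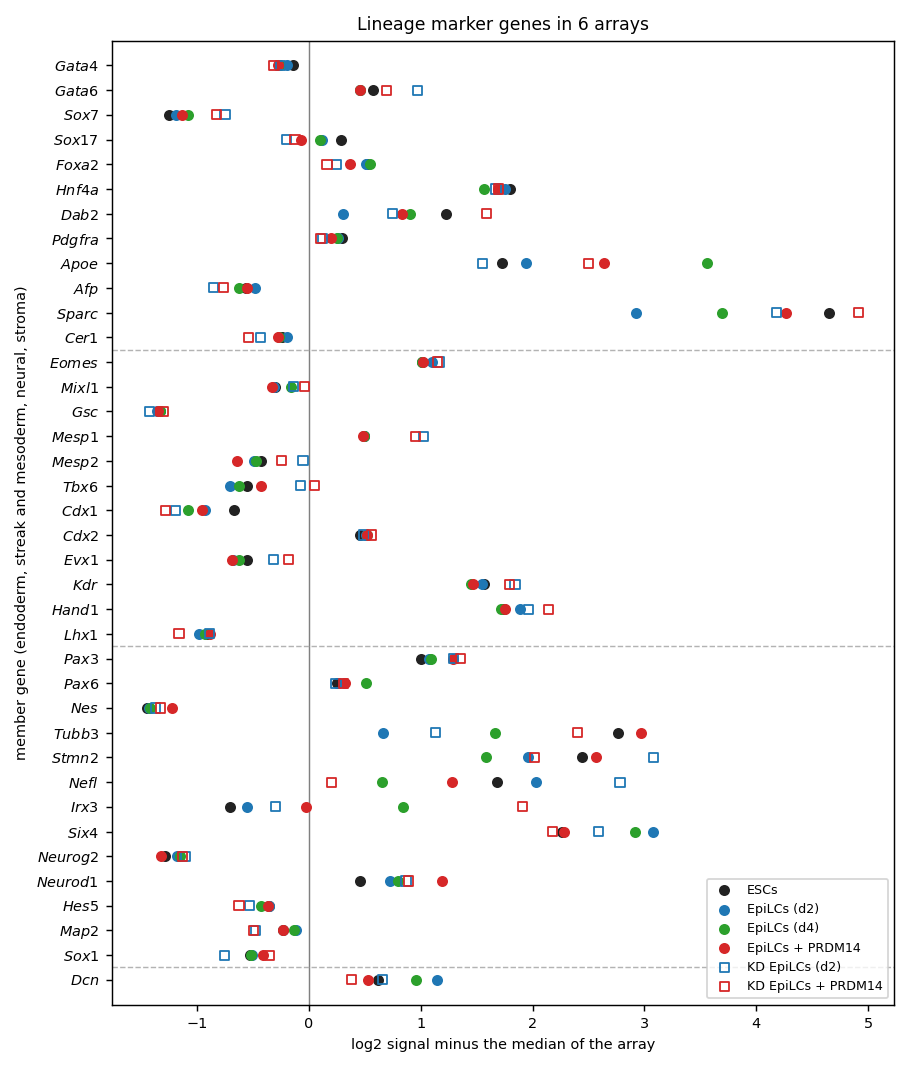
Log2 signal of each of the 38 marker genes minus the median of its array (x axis), with 1 point per array and the genes on the y axis grouped from top to bottom as endoderm, streak and mesoderm, neural and stroma. Most genes have points close together, whereas *Apoe*, *Sparc*, *Dab2*, *Tubb3*, *Stmn2*, *Nefl* and *Irx3* spread over more than 1 log2 unit.

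With PRDM14, *Tubb3*, *Stmn2* and *Nefl* stood higher than in the same-day EpiLCs, whereas *Irx3*, *Six4* and *Apoe* stood lower. In EpiLCs + PRDM14 minus EpiLCs (d4), 3 of the 38 genes were higher (7.89%), where 1.88% of all genes were, and 3 were lower (7.89%), where 2.15% of all genes were. The dimmer probe sets of *Nefl* (0.12) and *Six4* (-0.08) were under the threshold. *Map2*, another gene of the neuronal cytoskeleton, differed by -0.10. The median difference of the 38 genes was -0.003, beside 0.01 for all genes, of which the central 95% lay between -0.53 and 0.51. Against EpiLCs (d2), which differ in day and medium as well as in PRDM14, 4 genes were higher (10.5%, beside 2.73% of all genes), namely *Apoe*, *Sparc*, *Tubb3* and *Stmn2*, and 3 were lower (7.89%, beside 1.91%), namely *Nefl*, *Six4* and *Dcn*. The comparisons share arrays and are not independent of each other. As in any bulk sample, fewer cells of a type and less RNA per cell cannot be told apart.

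**Figure D2:**
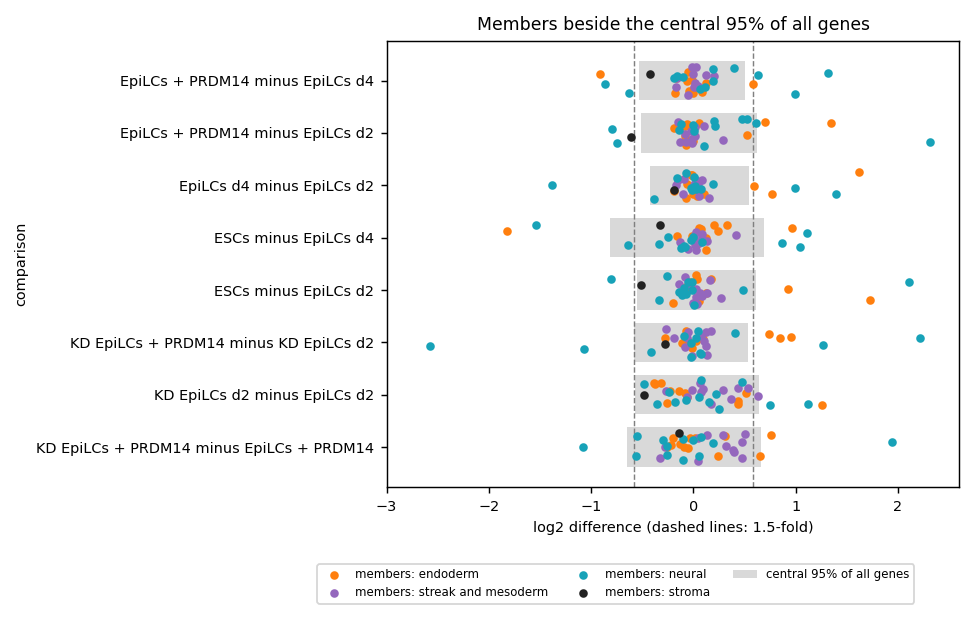
Log2 differences (x axis) of the 38 marker genes in the 8 comparisons (y axis), with points coloured by group, beside grey bars that span the central 95% of all 17097 genes. In EpiLCs + PRDM14 minus EpiLCs (d4), 6 points lie beyond the dashed lines at 1.5-fold, 5 of them neural genes, and no streak or mesoderm gene does.

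*Tubb3*, which encodes the neuronal class III beta-tubulin, had the largest difference among the 38 genes between the scramble array with PRDM14 and either EpiLC array without it. Its log2 signal was 5.94 in EpiLCs at day 2, 6.94 at day 4, 8.25 with PRDM14 and 8.05 in ESCs. EpiLCs + PRDM14 was thus higher than the same-day EpiLCs by 1.31, or 2.48-fold, and higher than EpiLCs (d2) by 2.31. The lowest of the 4 arrays was EpiLCs (d2), and ESCs and EpiLCs + PRDM14 were both above the EpiLC arrays. ESCs stood above EpiLCs (d2) by 2.11 and above EpiLCs (d4) by 1.11. *Tubb3* is represented by 1 probe set, and in the KD arrays it read 6.20 at day 2 and 7.47 with PRDM14, a difference of 1.27.

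The start-site windows of *Tubb3* and the endoderm gene *Sparc* are shown because these genes had the largest differences of the 38 between EpiLCs + PRDM14 and EpiLCs (d2). No value here ties the windows to the signals. They come from RefSeq (GRCm38.p6) and span 250 bases before to 50 bases after the annotated start, written 5′ to 3′ along the gene. *Tubb3* lies on the plus strand of chr8:123411303-123411602 and *Sparc* on the minus strand of chr11:55420031-55420330. Capitals mark every match, on either strand, to 6 short motifs.
Tubb3: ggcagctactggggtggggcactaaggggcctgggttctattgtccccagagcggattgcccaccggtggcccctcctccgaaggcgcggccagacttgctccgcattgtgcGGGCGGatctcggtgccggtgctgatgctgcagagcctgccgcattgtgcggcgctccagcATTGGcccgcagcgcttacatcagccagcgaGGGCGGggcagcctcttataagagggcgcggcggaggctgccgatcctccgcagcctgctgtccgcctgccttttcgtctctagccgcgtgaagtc
Sparc: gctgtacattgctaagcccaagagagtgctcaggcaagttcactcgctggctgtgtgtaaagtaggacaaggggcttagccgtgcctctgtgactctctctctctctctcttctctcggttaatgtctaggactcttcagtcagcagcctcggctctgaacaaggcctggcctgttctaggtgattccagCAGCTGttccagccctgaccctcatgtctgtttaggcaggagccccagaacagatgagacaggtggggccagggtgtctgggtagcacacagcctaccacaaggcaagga
The motifs were GGTCTC, with which the motif known for PRDM14 begins, the octamer ATGCAAAT bound by POU factors, the TATA box TATAAA, the GC box GGGCGG of SP factors, the CCAAT box of NF-Y, and CAGCTG, an E-box bound by basic helix-loop-helix factors. In the *Tubb3* window the capitals are 2 GC boxes and 1 CCAAT on the reverse strand, and in the *Sparc* window 1 CAGCTG. The *Tubb3* window had a GC content of 67.3% with 26 CpG dinucleotides, and the *Sparc* window one of 55.3% with 4, beside a median GC content of 52.67% over 32851 windows. Neither window held GGTCTC or ATGCAAAT, and a match or its lack describes only these letters in this stretch.

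*Stmn2* encodes stathmin-2, a microtubule regulator of growing axons. Its log2 signal was 7.24 in EpiLCs at day 2, 6.86 at day 4, 7.85 with PRDM14 and 7.73 in ESCs. The array with PRDM14 was the highest of the 4 and EpiLCs (d4) the lowest, and they differed by 0.99, or 1.99-fold. A second probe set read 7.03, 6.37, 7.92 and 7.48 in the same arrays. At that probe set the difference with PRDM14 was 1.55, and EpiLCs (d4) lay 0.66 below EpiLCs (d2), past the threshold that the brighter probe set did not reach (-0.38). In the KD arrays the brighter probe set read 8.15 at day 2 and 7.08 with PRDM14, so that the order of the day-2 and PRDM14 arrays was the opposite of that in the scramble arrays.

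*Nefl*, the gene of the neurofilament light chain, read 7.31 in EpiLCs at day 2, 5.93 at day 4, 6.56 with PRDM14 and 6.97 in ESCs. It was the only one of the 38 genes called lower in EpiLCs (d4) than in EpiLCs (d2) (-1.38). The array with PRDM14 lay between them, 0.63 above EpiLCs (d4) and 0.75 below EpiLCs (d2) on the log2 scale. The KD arrays read 7.85 at day 2 and 5.27 with PRDM14, and relative to the array medians these were the highest and the lowest of the 6 arrays. A second, dimmer probe set of *Nefl* ranged from 5.11 to 5.27 over the 4 other arrays, with differences under the threshold in each of their comparisons, and read 5.92 and 5.09 in the KD arrays. The calls of *Nefl* among the scramble and ESC arrays therefore rest on 1 of its 2 probe sets.

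*Irx3*, an Iroquois homeobox gene of the developing neural tube, was brightest at day 4. Among the arrays without knockdown it read 4.73 in EpiLCs at day 2, 6.12 at day 4, 5.25 with PRDM14 and 4.58 in ESCs. EpiLCs (d4) was the highest of these and lay 1.39 above EpiLCs (d2), whereas EpiLCs + PRDM14 was 0.86 below EpiLCs (d4) and 0.53 above EpiLCs (d2) on the log2 scale. All values except that of EpiLCs (d4) lay below the median of their array. In the KD arrays *Irx3* read 4.77 at day 2 and 6.98 with PRDM14, the highest of the 6 arrays relative to the array medians.

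*Apoe*, an endoderm marker that encodes the lipid carrier apolipoprotein E, had the same order of EpiLC arrays. It read 7.22 in EpiLCs at day 2, 8.83 at day 4, 7.92 with PRDM14 and 7.01 in ESCs. EpiLCs (d4) was the highest of the 6 arrays relative to the array medians, 1.61 above EpiLCs (d2), 1.82 above ESCs and 0.92 above EpiLCs + PRDM14. The KD arrays read 6.62 at day 2 and 7.57 with PRDM14. Both *Irx3* and *Apoe* are represented by 1 probe set.

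The start-site windows of *Irx3* and *Apoe* are shown because these genes had the largest differences of the 38 between EpiLCs (d4) and EpiLCs (d2). *Irx3* lies on the minus strand of chr8:91801605-91801904, and of the 3 windows of *Apoe* the one with motif matches lies on the minus strand of chr7:19698572-19698871.
Irx3: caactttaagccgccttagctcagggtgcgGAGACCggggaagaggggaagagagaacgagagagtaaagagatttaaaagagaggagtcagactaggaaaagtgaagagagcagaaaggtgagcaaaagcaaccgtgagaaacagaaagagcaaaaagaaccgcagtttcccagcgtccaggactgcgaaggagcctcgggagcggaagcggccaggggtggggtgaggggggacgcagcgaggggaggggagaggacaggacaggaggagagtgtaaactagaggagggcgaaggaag
Apoe: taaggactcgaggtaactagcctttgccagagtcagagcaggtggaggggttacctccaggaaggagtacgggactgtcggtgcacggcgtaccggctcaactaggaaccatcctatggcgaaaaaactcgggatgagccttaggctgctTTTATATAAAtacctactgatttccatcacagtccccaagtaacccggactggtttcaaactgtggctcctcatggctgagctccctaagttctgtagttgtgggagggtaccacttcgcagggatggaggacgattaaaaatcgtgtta
The capitals in the *Irx3* window are 1 GGTCTC on the reverse strand, and those in the *Apoe* window are 2 overlapping TATAAA matches, 1 on each strand. Their GC contents were 56.0% and 51.0%, with 14 and 12 CpG dinucleotides. Windows were listed for 27 of the 38 genes, 35 in all, and for 7 of the 10 called genes. GGTCTC was present in 9 of the 35 windows, those of 8 genes, among which *Irx3*, *Dab2* and *Tbx6* are called genes, and in 16.4% of all windows. ATGCAAAT was present in 3 (1.74% of all windows), TATAAA in 5 (13.6%), GGGCGG in 15 (35.7%), CCAAT in 13 (37.4%) and CAGCTG in 4 (16.3%).

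*Six4*, a homeobox gene of neurogenic placodes and muscle precursors, was lower in ESCs and with PRDM14. Its brighter probe set read 8.35 in EpiLCs at day 2, 8.19 at day 4, 7.56 with PRDM14 and 7.55 in ESCs. ESCs and EpiLCs + PRDM14 were nearly equal and both lay past 1.5-fold below the EpiLC arrays, EpiLCs + PRDM14 by differences of -0.63 against EpiLCs (d4) and -0.79 against EpiLCs (d2). In the KD arrays *Six4* read 7.66 and 7.24. A second probe set read 6.01, 5.84, 5.76 and 5.67 in the 4 arrays in the same order, with the lowest value again in ESCs but all differences under the threshold.

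The remaining 8 neural genes passed the threshold in none of the comparisons made, and 5 of them had mean signals below the median of all probe sets. They were *Pax3* and *Pax6*, paired-box regulators of the dorsal neural tube and the eye, *Sox1*, a marker of neural progenitors, *Nes*, which encodes the intermediate filament nestin, the proneural genes *Neurog2* and *Neurod1*, the Notch target *Hes5* and *Map2*, which encodes a dendritic microtubule-associated protein. *Neurod1* had the widest span of these over ESCs and the scramble arrays, 0.73. It was lowest in ESCs (5.74) and highest in EpiLCs + PRDM14 (6.47), with EpiLCs (d4) at 6.08 and EpiLCs (d2) below that. A dimmer *Neurod1* probe set had the same order, from 4.09 in ESCs over 4.59 at day 2 and 4.97 at day 4 to 5.14 with PRDM14, and was past the threshold between ESCs and EpiLCs (d4) (-0.88).

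Among 21 other measured neural genes of 24 listed, 1 was higher with PRDM14 than in EpiLCs (d4) (4.76%, beside 1.88% of all genes). In the same comparison 4 were lower (19.0%, beside 2.15%). *Sox2*, a factor of both neural progenitors and pluripotent cells, differed by 0.70. The lower ones were *Sox11*, a factor of immature neurons (-2.67), *Gbx2*, a hindbrain homeobox gene also active in pluripotent cells (-0.85), *Gap43*, a growth cone gene (-0.72), and the Notch ligand gene *Dll1* (-0.70). Genes known from neurons thus lay on both sides of this comparison, *Tubb3*, *Stmn2* and *Nefl* above and *Sox11* and *Gap43* below.

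**Figure D3:**
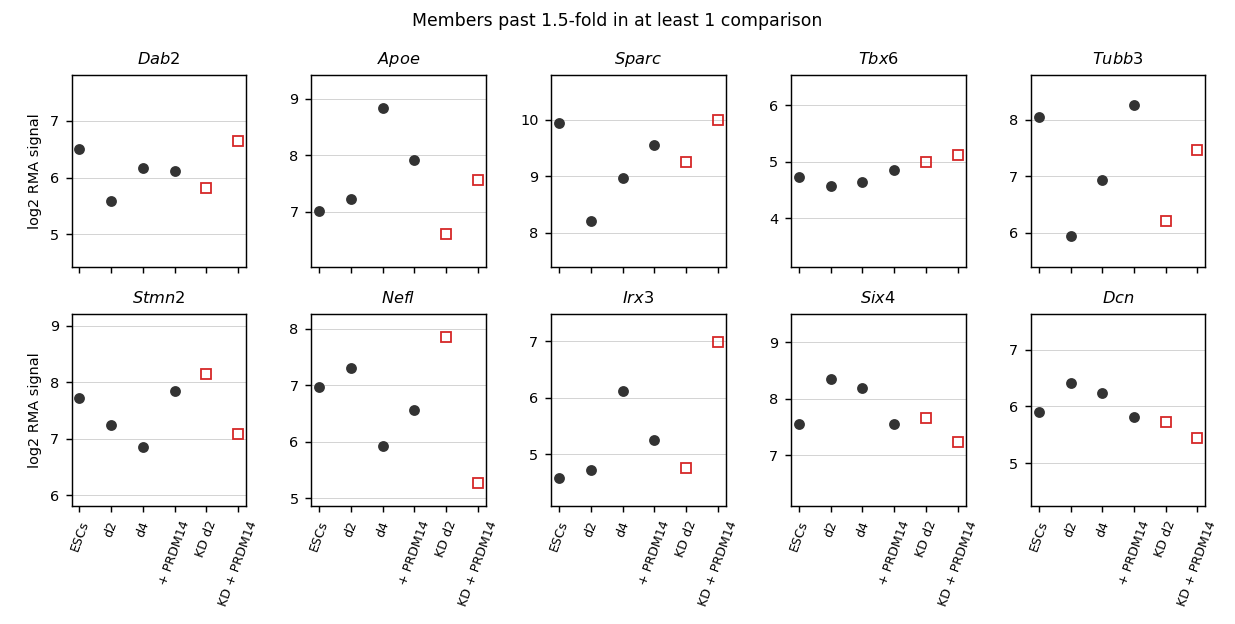
Log2 RMA signal (y axis, the same height of scale in each panel) of the 10 called genes in the 6 arrays (x axis), with filled circles for ESCs and the scramble arrays and open squares for the KD arrays, all as deposited and without a shift. *Tubb3* and *Sparc* are lowest in EpiLCs (d2), and among the filled circles *Irx3* and *Apoe* are highest in EpiLCs (d4).

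*Sparc* encodes a secreted matrix glycoprotein that is abundant in parietal endoderm. It read 8.21 in EpiLCs at day 2, 8.97 at day 4, 9.55 with PRDM14 and 9.94 in ESCs. EpiLCs (d2) was the lowest array, 1.73 below ESCs and 1.34 below EpiLCs + PRDM14. Against the same-day EpiLCs the difference was 0.58, which falls just short of the threshold and passes it, at 0.62, after quantile normalization of all arrays. A second *Sparc* probe set had the same order of these arrays, 6.86, 7.36, 7.83 and 8.30. In the KD arrays *Sparc* read 9.25 at day 2 and 9.99 with PRDM14.

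*Dab2*, which encodes an endocytic adaptor of the primitive and visceral endoderm, read 5.59 in EpiLCs at day 2, 6.18 at day 4, 6.11 with PRDM14 and 6.51 in ESCs. It was lowest in EpiLCs (d2), and the array with PRDM14 differed from EpiLCs (d4) by only -0.07. The KD arrays read 5.81 and 6.65. A second probe set, at 4.94, 5.17, 5.01 and 5.28 in the first 4 arrays, had differences under the threshold.

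The other 9 endoderm genes were called in no comparison. They include the factors of primitive and definitive endoderm *Gata4*, *Gata6*, *Sox7*, *Sox17*, *Foxa2* and *Hnf4a*, the receptor gene *Pdgfra* of the primitive endoderm, *Afp*, which encodes the fetal serum protein alpha-fetoprotein, and *Cer1*, which encodes an antagonist of nodal and BMP made by the anterior visceral endoderm. Their spans over ESCs and the scramble arrays were 0.08 to 0.37, and 4 of the 9 had mean signals below the median of all probe sets. *Gata6* read 5.86 in ESCs and 5.73 to 5.74 in the scramble arrays. *Sox17* read 5.40 in EpiLCs at day 2, 5.38 at day 4, 5.21 with PRDM14 and 5.57 in ESCs.

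Of 20 other endoderm genes listed, 18 were measured. With PRDM14, 1 was higher than in EpiLCs (d4) (5.56%, beside 1.88% of all genes), and 2 were lower (11.1%, beside 2.15%). The higher one was *Nid1*, which encodes the basement membrane protein nidogen-1 (1.23). The lower ones were the keratin genes *Krt8* (-1.38) and *Krt18* (-1.21). These keratins are also trophoblast markers. Of 11 trophoblast genes, 3 of which are among the 38, *Krt8*, *Krt18* and the placental factor gene *Ascl2* (-0.90) were lower with PRDM14 than at day 4 (27.3%, beside 2.15% of all genes). From EpiLCs (d2) to EpiLCs (d4), 4 were higher (36.4%, beside 2.17%). The mean log2 signal of the 11 above the array median was 0.53 in ESCs and EpiLCs (d2), 1.00 in EpiLCs (d4), 0.67 in EpiLCs + PRDM14, and 0.83 and 1.34 in the KD arrays at day 2 and with PRDM14. The trophoblast factor genes *Elf5* and *Gata3* were below the median in all 6 arrays. The rise of the mean from EpiLCs (d2) to EpiLCs (d4) came from the 4 genes called, *Krt8*, *Krt18* and *Ascl2* among them. The other genes of the list differed by -0.21 to 0.01 between these arrays. *Apoe* and *Irx3* had the same order of scramble arrays as those 4 genes, but so did *Gap43* and *Gbx2* of the neural list. The share of all genes with this order was not counted. The part of other cell types in the values of *Apoe* and *Irx3* was not tested.

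Among the genes of the streak and mesoderm, no member was called in any comparison without knockdown. In these comparisons 1.13% to 4.11% of all genes were called per direction. For 12 genes, 0 calls in a comparison is near that share. Of the 11 members called in no comparison, 6 had mean signals below the median of all probe sets. In EpiLCs + PRDM14 minus EpiLCs (d4) the differences of the 12 members ranged from -0.17 to 0.20, with a median of 0.01. The streak and nascent mesoderm factors were *Eomes*, *Mixl1*, *Gsc*, *Evx1*, *Lhx1*, *Mesp1* and *Mesp2*, the caudal factors *Cdx1* and *Cdx2*, the paraxial mesoderm factor *Tbx6*, the VEGF receptor gene *Kdr* of blood and vessel progenitors, and *Hand1*, a factor of heart and extraembryonic tissue. *Mesp1* had the smallest span of all 38 genes, with 5.77 in ESCs and both EpiLC arrays and 5.76 with PRDM14. *Cdx1* had the widest span of the group, 0.42, and read 4.35 in EpiLCs at day 2, 4.20 at day 4, 4.32 with PRDM14 and 4.61 in ESCs.

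*Eomes*, which directs cells of the streak toward endoderm and mesoderm, gave different pictures at its probe sets. The brighter one read 6.38 in EpiLCs at day 2, 6.29 at day 4, 6.30 with PRDM14 and 6.30 in ESCs, with 6.23 and 6.22 in the KD arrays. The dimmer one read 5.72, 5.17, 5.41 and 5.59 in the first 4 arrays, and 6.90 and 6.20 in the KD arrays at day 2 and with PRDM14. The dimmer probe set thus passed the threshold between the KD arrays (-0.70) and, after the shift, between KD and scramble arrays at day 2 (1.40) and with PRDM14 (1.00), which the brighter one did not. Of 20 other streak and mesoderm genes measured of 21 listed, 1 was higher with PRDM14 than in EpiLCs (d4), beside 1.88% of all genes. In the same comparison 0 were lower, beside 2.15% of all genes. The higher one was *Bmp4*, a growth factor gene of the extraembryonic ectoderm and mesoderm (0.66). *Bmp4* read 5.60 in EpiLCs at day 2, 5.57 at day 4, 6.24 with PRDM14 and 6.78 in ESCs. The array with PRDM14 thus lay between the EpiLC arrays and ESCs. In the KD arrays *Bmp4* read 6.53 at day 2 and 7.40 with PRDM14.

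*Dcn*, which encodes the collagen-binding proteoglycan decorin of connective tissue, read 6.42 in EpiLCs at day 2, 6.23 at day 4, 5.81 with PRDM14 and 5.91 in ESCs. EpiLCs + PRDM14 was below EpiLCs (d2) past the threshold (-0.62) but not below EpiLCs (d4) (-0.42). Among 9 fibroblast genes measured of 10 listed, *Dcn* included, 0 were called with PRDM14 against EpiLCs (d4). Of all genes, 1.88% were higher and 2.15% lower there, so that 0 of 9 is near the share of all genes. The collagen genes *Col1a1*, *Col1a2* and *Col3a1* were below the array median in all 6 arrays. *Dcn* read 5.72 and 5.45 in the KD arrays.

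Between day 2 and day 4 without PRDM14, more of these genes were higher than lower. In EpiLCs (d4) minus EpiLCs (d2), 5 of the 38 genes were higher (13.2%, beside 2.17% of all genes), namely *Apoe*, *Irx3*, *Tubb3*, *Sparc* (0.76) and *Dab2* (0.59), and *Nefl* alone was lower (2.63%, beside 1.13%). The differences of *Apoe*, *Irx3* and *Nefl* exceeded 1 log2 unit, that of *Tubb3* was 1.00, and *Dab2* lay just past the threshold. Between these arrays the central 95% of all genes lay from -0.42 to 0.54.

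In the ESC array, *Tubb3* and *Sparc* were higher and *Six4* was lower than in either EpiLC array without PRDM14. In ESCs minus EpiLCs (d4), 4 genes were higher (10.5%, beside 3.47% of all genes), namely *Tubb3*, *Nefl*, *Sparc* and *Stmn2*, and 3 were lower (7.89%, beside 4.11%), namely *Apoe*, *Irx3* and *Six4*. In ESCs minus EpiLCs (d2), *Tubb3*, *Sparc* and *Dab2* (0.92) were higher (7.89%, beside 2.70%), and *Six4* was lower (2.63%, beside 2.32%). Side by side against EpiLCs (d4), ESCs and EpiLCs + PRDM14 differed by 1.11 and 1.31 for *Tubb3*, by 0.87 and 0.99 for *Stmn2*, by 1.04 and 0.63 for *Nefl*, by 0.97 and 0.58 for *Sparc*, by -1.82 and -0.92 for *Apoe*, by -1.54 and -0.86 for *Irx3*, and by -0.64 and -0.63 for *Six4*. Both columns of differences subtract the same array, so their shared signs are not independent.

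**Figure D4:**
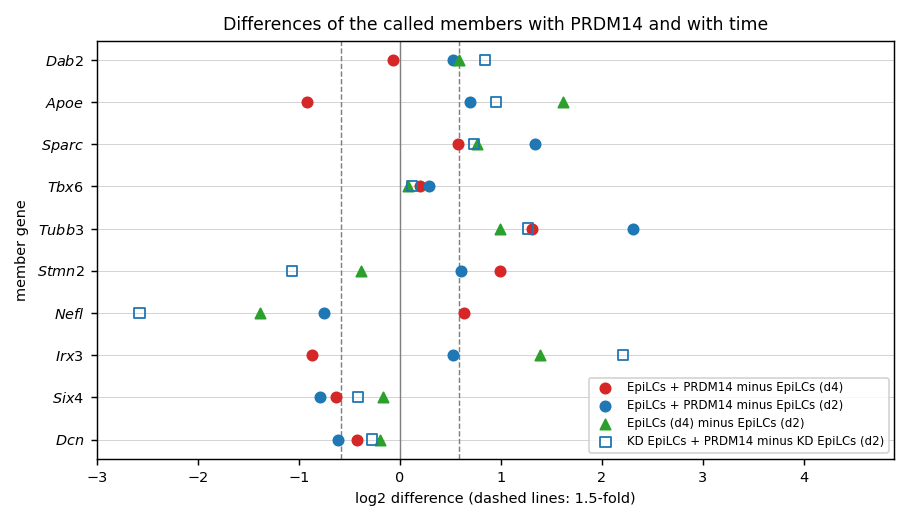
Log2 differences (x axis) of the 10 called genes (y axis) for EpiLCs + PRDM14 against day 4 and against day 2, for day 4 against day 2 and, as open squares, for the KD pair, with dashed lines at 1.5-fold. For *Apoe*, *Irx3*, *Nefl* and *Dab2* the sign with PRDM14 depends on the reference day, and for *Stmn2* the KD pair lies on the other side of 0 from the scramble pair.

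In the arrays labelled *Tet1*/*Tet2* KD, of which that of day 2 showed no lower *Tet2*, PRDM14 could be compared only with day 2, so that PRDM14, time and medium cannot be told apart there. In KD EpiLCs + PRDM14 minus KD EpiLCs (d2), 5 genes were higher (13.2%, beside 2.13% of all genes), namely *Irx3* (2.21, or 4.63-fold), *Tubb3* (1.27), *Apoe* (0.95), *Dab2* (0.84) and *Sparc* (0.74). The genes *Nefl* (-2.58) and *Stmn2* (-1.07) were lower (5.26%, beside 2.52%). The same genes were called higher in EpiLCs (d4) minus EpiLCs (d2) without knockdown, where *Dab2* (0.59) lay just past the threshold. How far these 2 comparisons overlap over all genes was not counted. The second probe sets of *Nefl* (-0.84), *Stmn2* (-0.98) and *Sparc* (0.78) were also past the threshold in the KD pair. The other probe sets of *Dab2* (0.42 and 0.09) were not. In the scramble pair over the same days *Apoe*, *Sparc* and *Tubb3* were also called higher, and *Irx3* (0.53) and *Dab2* (0.52) fell just short of the threshold. There *Nefl* differed by -0.75 and *Stmn2* by 0.61.

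Between the arrays labelled KD and the scramble arrays, after the shift to a common median, 4 genes were higher at day 2 (10.5%, beside 3.30% of all genes), namely *Sparc* (1.25), *Stmn2* (1.12), *Nefl* (0.75) and *Tbx6* (0.63), and 0 were lower (beside 2.25%). *Tbx6* read 4.57 in EpiLCs at day 2, 4.65 at day 4, 4.85 with PRDM14, 4.73 in ESCs, and 4.99 and 5.11 in the KD arrays before the shift, all of them below the array median except the last. With PRDM14, *Irx3* (1.94), *Dab2* (0.76) and *Sparc* (0.65) were higher in KD (7.89%, beside 3.58%), and *Nefl* (-1.08) was lower (2.63%, beside 3.38%). Other probe sets of *Dab2* (0.42 and 0.05) and *Nefl* (0.03) were under the threshold there, whereas that of *Sparc* (0.74) was past it. Without the shift, 2 genes were higher and 4 lower at day 2, and 1 was higher and 3 lower with PRDM14, so the balance of higher and lower calls depends on the scaling. *Sparc* (1.04) and *Stmn2* (0.91) at day 2, and *Irx3* (1.73) and *Nefl* (-1.29) with PRDM14, were called in the same direction without the shift.

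The 12 streak and mesoderm genes had a median difference of 0.31 between the KD and scramble arrays with PRDM14, beside 0.01 for all genes, and of 0.13 at day 2, beside 0.03. *Mesp1*, for example, read 6.09 and 6.02 in the KD arrays before the shift. A separate normalization of the KD arrays and an effect of the knockdown cannot be told apart for differences of this size.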

How the data were processed

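Total RNA was amplified by the GeneChip 3′ IVT Express Kit and read on Affymetrix MG-430 PM strips with a GeneAtlas instrument. The authors deposited log2 signals from robust multi-array average (RMA) at default settings, per the submitters' processing notes with the Affymetrix Expression Console, of which no version was found. Values were used as deposited, and with 1 array per condition the precision is limited by the number of arrays. Of 45141 probe sets, 104 controls were left out, and 28898 of the rest had 1 gene symbol, 551 several and 15588 none. The brightest probe set over the 6 arrays stood for each of 17097 genes. Differences between log2 values were called at 1.5-fold with no test. KD and scramble arrays were compared after a shift of every array to a common median. Every marker past the threshold in at least 1 of 8 comparisons is given in all arrays, and the others by counts and ranges. Genes of the other lists are named when past 1.5-fold in EpiLCs + PRDM14 minus EpiLCs (d4), at most the 4 with the largest difference in a list; *Elf5*, *Gata3* and the collagen genes are named as defining markers, and *Pou3f1* and *Nanog* as examples. The markers and lists were chosen with earlier results of these data known. The calling step was run on simulated data with planted differences and little noise, which checks the code but not how reliable the calls on these arrays are. Alternatives were a 2-fold threshold, the mean or the most variable probe set of a gene, a filter on dim probe sets, quantile normalization of all arrays, and the shift applied or left out. Sequences came from RefSeq windows (GRCm38.p6) matched by symbol. Python 3.11.15, numpy 2.4.6, pandas 2.3.3 and matplotlib 3.10.9 were used.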

Additional observations from a re-analysis of the deposited data

Results flagged for a closer look

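*Stmn2* differed in opposite directions in the pairs with and without knockdown. EpiLCs + PRDM14 minus EpiLCs (d2) was 0.61 with the scramble shRNA and -1.07 with the *Tet1*/*Tet2* KD. The KD pair minus the scramble pair was thus -1.67 on the log2 scale. After the shift, KD minus scramble was 1.12 at day 2 and -0.55 with PRDM14, the latter under the threshold. PRDM14, time and medium cannot be told apart in either pair, and *Tet2* was not lower in the KD array of day 2. *Nefl* (-1.83) and *Irx3* (1.69) had gaps between the pairs of similar size, without calls in opposite directions. Each pair has 1 array per condition, and the difference between the pairs was not tested.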

How the results depend on the processing

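No call changed its direction under the alternatives run. At a 2-fold threshold the markers called fell from 6 to 1 in EpiLCs + PRDM14 minus EpiLCs (d4) and from 7 to 2 against EpiLCs (d2), from 6 to 3 in EpiLCs (d4) minus EpiLCs (d2), from 7 to 4 in ESCs minus EpiLCs (d4), from 4 to 2 in ESCs minus EpiLCs (d2), from 7 to 4 in the KD pair, and from 4 to 2 in both KD minus scramble comparisons. With the mean of all probe sets of a gene they fell from 4 to 2 in ESCs minus EpiLCs (d2) and in KD minus scramble with PRDM14. Without the shift between arrays, 6 markers (2 higher and 4 lower) in place of 4 (4 higher and 0 lower) were called in KD minus scramble at day 2, and 4 (1 higher and 3 lower) in place of 4 (3 higher and 1 lower) with PRDM14. The other counts stayed within 1.5 times the main count. Of the 10 called markers' own differences, 424 values under the alternatives kept their side of the threshold, 41 no longer passed it and 7 newly passed it. No paired analysis was possible because each condition has 1 array and the labels carry no replicate numbers, and for the same reason no array could be left out within a group. Low signal limits 16 of the 38 markers, whose mean signals lay below the median of all probe sets.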
